A study of Mus musculus with 8 samples.

Results

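The subject is MHC class I antigen presentation, taken as 10 genes given by name and found by symbol in the expression table: B2m, H2-K1, H2-D1, Tap1, Tap2, Tapbp, Psmb8, Psmb9, Psmb10 and Nlrc5. They are 10 of the 24421 genes in the table, and all 10 were among the 18070 genes tested. The choice used no measured value of the table as a criterion, but it was made with earlier results of these data known. MHC class I molecules carry short peptides from inside the cell to its surface, where CD8 T cells read them and NK cells sense their loss. The proteasome cuts proteins into peptides, the transporter TAP moves these into the endoplasmic reticulum, and a loading complex fits them onto a heavy chain paired with beta-2 microglobulin. Interferon raises the whole set in most cell types, in part through the coactivator NLRC5, and melanocytes and melanoma cells are well known targets of CD8 T cells that read class I.

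The samples were EGFP+ and tdTomato+ cells sorted from the back skin of 4 C57BL/6J mice, all of them carriers of ROSA mTmG and of Tyr:CreERT2. The ROSA allele is a reporter that switches from tdTomato to EGFP once Cre has acted. The EGFP+ cells are thus those in which a tamoxifen-dependent Cre under tyrosinase sequence had recombined, and the tdTomato+ cells are all other sorted skin cells, melanocytes without recombination included. Every mouse, in all 4 groups, received tamoxifen daily for 10 days from postnatal day 21, had its back shaved and depilated on day 50 and gave skin on day 54. Mice 3 and 4 received UVB at 150 mJ/cm2 for 3 days, and mice 1 and 2 were mock treated with normal light. Each mouse gave 1 EGFP library and 1 tdTomato library, so that the 4 groups (each population with and without UV) hold 2 libraries apiece (replicates 1 and 2 are mice 1 and 2 without UV and mice 3 and 4 with UV). Ages beyond these days and the sexes of the mice are not used here.

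The 8 libraries held between 11186363 and 16711981 reads, and the values below are reads divided by 1 size factor per library, called normalized reads. The number of genes with reads ran from 11186 (EGFP with UV, replicate 2) to 17076 (tdTomato without UV, replicate 2). The marker genes matched the labels in every library. The summed level of 10 melanocyte markers (such as Dct and Tyr) was 535648 to 630200 normalized reads in EGFP+ cells and 2675 to 45527 in tdTomato+ cells, and that of 10 keratinocyte markers (such as Krt14) was 958 to 1410 in EGFP+ and 368004 to 508094 in tdTomato+ cells. The 15 leukocyte markers summed to 7.54 to 84.6 in EGFP+ and 1322 to 6608 in tdTomato+ cells, and the gene of the common leukocyte antigen, Ptprc, had 0 reads in 3 of the 4 EGFP libraries. The tdTomato+ cells are therefore a mixture led by keratinocytes, with leukocytes in it. In such bulk libraries fewer cells of a type and less RNA per cell cannot be told apart.

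Of the 10 genes, 7 lie in or beside the mouse MHC on chromosome 17, 2 on chromosome 8 and 1 on chromosome 2 (GENCODE M21, GRCm38/mm10, all protein coding). Tapbp (17:33915899-33929292, plus strand) and H2-K1 (17:33996017-34000347, minus) come first. Psmb9 (17:34181987-34187764, minus), Tap1 (17:34187553-34197225, plus), Psmb8 (17:34197721-34201454, plus) and Tap2 (17:34203527-34216321, plus) form a compact block, and H2-D1 (17:35262730-35267499, plus) lies 1046.408 kb further on. Psmb10 (8:105935735-105938444, minus), Nlrc5 (8:94434356-94527272, plus) and B2m (2:122147686-122153083, plus) stand outside the MHC. Psmb9 and Tap1 start head to head, and their annotated ends overlap by 212 bases. The kit did not mark strand, so reads from that overlap cannot be assigned to either gene.

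The sequence before the transcription start is shown for the 2 heavy chains and for beta-2 microglobulin. Each heavy chain pairs with beta-2 microglobulin, and the levels of these 3 genes are compared below. The interval between Psmb9 and Tap1, which lies before both genes by their RefSeq starts, is shown too. The letters are from RefSeq on GRCm38.p6, 5′ to 3′ on the strand of the gene: H2-K1 from chr17:34000348-34000547 (minus), H2-D1 from chr17:35262894-35263093 (plus), B2m from chr2:122147487-122147686 (plus) and the interval from Psmb9 to Tap1 from chr17:34187331-34187555 (plus, 225 bases). Capitals mark matches to an NF-kappa-B-like motif (GGG, any 2 bases, TT, any base, CC), to interferon response motifs (GAAGTGAAA, or GAAA, any 2 bases, GAAA), and to the pair TGACG and ATTGG, the letters of the X2 and Y boxes of the SXY module to which NLRC5 and its partners bind. In the interval they mark TGACG and CCAAT.
H2-K1: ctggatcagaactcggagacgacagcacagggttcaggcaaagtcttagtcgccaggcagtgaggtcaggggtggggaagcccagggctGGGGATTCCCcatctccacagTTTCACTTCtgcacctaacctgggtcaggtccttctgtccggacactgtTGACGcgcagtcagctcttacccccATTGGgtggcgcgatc
H2-D1: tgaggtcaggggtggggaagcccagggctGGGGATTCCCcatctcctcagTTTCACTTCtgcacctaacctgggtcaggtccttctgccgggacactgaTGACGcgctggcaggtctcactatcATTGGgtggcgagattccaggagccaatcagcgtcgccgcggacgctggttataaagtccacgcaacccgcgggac
B2m: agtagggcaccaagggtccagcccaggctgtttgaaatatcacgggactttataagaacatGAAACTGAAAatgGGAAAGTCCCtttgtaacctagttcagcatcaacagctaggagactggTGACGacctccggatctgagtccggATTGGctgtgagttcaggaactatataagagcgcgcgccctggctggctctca
Psmb9 to Tap1: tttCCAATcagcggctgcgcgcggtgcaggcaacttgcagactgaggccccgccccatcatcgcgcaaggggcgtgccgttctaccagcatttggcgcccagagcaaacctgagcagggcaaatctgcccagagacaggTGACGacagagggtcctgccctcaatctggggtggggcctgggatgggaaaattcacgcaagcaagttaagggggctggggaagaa
H2-K1, H2-D1 and B2m each hold TGACG followed by ATTGG with exactly 20 bases between. Both strands were searched in the 250 bases before the start, and CCAAT is ATTGG read on the other strand. Of the 8 members with an entry in the RefSeq promoter table, these 3 hold the pair with 15 to 25 bases between, against 109 of all 27025 promoters (0.403%). Tap2 and Nlrc5 have no entry. The upstream sequences of H2-K1 and H2-D1 are alike, with 166 of 190 aligned bases identical (87.4%). The single motifs are common to very different degrees: CCAAT is in 34.5% of all promoters, TGACG in 17.9%, the NF-kappa-B-like motif in 4.00%, GAAGTGAAA in 0.429% and the spaced GAAA pair in 3.04%. A match describes letters and is no evidence of binding. Among the other genes of the pathway the pair was in H2-Q7 and H2-M3 of 17 further heavy chains with an entry, in Jak1 and in H2-Aa.

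B2m, the light chain of every class I molecule, was the most abundant member in all 4 groups. Per kilobase of exon it stood at 53212 ± 16534 normalized reads (SD, n = 2) in EGFP without UV and 73356 ± 12822 in EGFP with UV, which is the rank 3 and the rank 2 of 23309 genes. In tdTomato it stood at 54163 ± 5337 without UV, rank 7, and at 25805 ± 514 with UV, rank 24. The 2 heavy chains followed at a much lower level. Per kilobase H2-K1 had 4012 ± 93.6 in EGFP without UV, 3660 ± 1009 in EGFP with UV, 5484 ± 1164 in tdTomato without UV and 2437 ± 228 in tdTomato with UV. H2-D1 had, in the same order and scale, 5375 ± 1836, 6267 ± 3255, 4736 ± 1419 and 3504 ± 2274. The order of H2-K1 and H2-D1 differed between groups, and their means ± SD overlapped in all 4 groups. Psmb8, Psmb10 and Tapbp had group means of 297 to 977 per kilobase and Psmb9, Tap1 and Tap2 of 68.0 to 412, and Nlrc5 was lowest, at 5.21 to 23.2. Nlrc5 had between 45 and 293 reads in a library, so in relative terms its values carry the largest counting error of the 10.

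**Figure D1:**
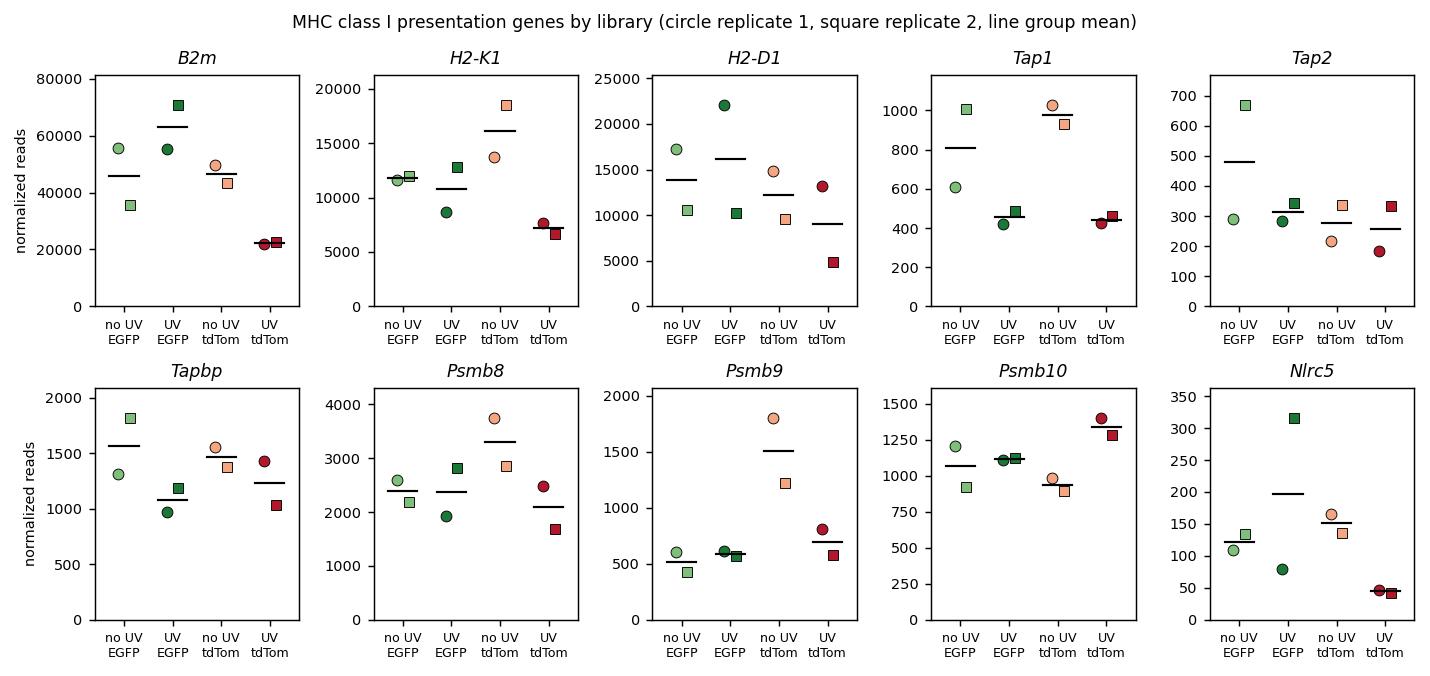
Normalized reads (linear axes from 0) of the 10 class I genes in the 8 libraries, with 1 panel per gene. Points are libraries, circles replicate 1 and squares replicate 2, and bars are group means; the B2m points of tdTomato with UV are 21880 and 22504, below the 6 other libraries.

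Between the sorted populations B2m and Psmb9 differed by the test. With UV, B2m was 2.82-fold higher in EGFP+ than in tdTomato+ cells, and without UV Psmb9 was 2.92-fold lower in EGFP+ cells. In each arm the other 9 members did not pass. Over all 4 mice B2m was 1.65-fold higher and Psmb9 1.84-fold lower in EGFP+ cells. All changes are limma estimates on log2 of normalized reads plus 1, with p adjusted by Benjamini-Hochberg over the 18070 genes and a threshold of 0.05.

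Without UV, 0 members were called higher and 1 of 10 lower in EGFP+ cells, where 19.2% of all genes tested were called. The median difference of the members was -0.18 on the log2 scale, beside -0.27 over all genes. With UV, 1 member was called higher and 0 lower, beside 17.9% of all genes, with a median of 0.26 beside -0.27. Over all mice 1 was called higher and 1 lower, beside 28.9% of all genes, with a median of 0.01 beside -0.33. The shares of members called lie near or below those of the table as a whole. Of all genes called, 34.8% were higher in EGFP without UV and 28.1% with UV, which became 51.3% and 45.2% under quantile normalization and 49.97% and 39.0% after rescaling without the 20 most abundant genes.

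B2m had 55817 and 35708 normalized reads in EGFP without UV, 55289 and 70883 in EGFP with UV, 49825 and 43334 in tdTomato without UV, and 21880 and 22504 in tdTomato with UV. The 2 tdTomato libraries of the UV mice lay below all other libraries. Within a mouse the EGFP value was 1.12 and 0.824 times the tdTomato value in mice 1 and 2, and 2.53 and 3.15 times in mice 3 and 4. With UV the difference was 1.50 ± 0.22 on the log2 scale (limma estimate ± SE, adjusted p = 0.00244), and without UV it was -0.06 ± 0.22 (limma adjusted p = 0.888). The UV call was lost without tdTomato replicate 1 (limma adjusted p = 0.0740) or replicate 2 (0.0612) of the UV mice. Over all mice it was 0.72 ± 0.15 (limma adjusted p = 0.00823), a call lost without any 1 of the 4 tdTomato libraries (adjusted p 0.0717 to 0.108). In the authors' deposited table the same comparison has a log2 fold change of 0.66 and an adjusted p of 0.152.

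H2-K1, the K heavy chain, had 11592 and 11981 normalized reads in EGFP without UV, 8657 and 12850 in EGFP with UV, 13692 and 18531 in tdTomato without UV, and 7636 and 6687 in tdTomato with UV. EGFP lay below tdTomato in both mice without UV and above it in both UV mice, with no overlap of the groups in either case. The share of all genes tested that lacked overlap between the populations was not counted. The log2 differences of -0.43 ± 0.22 without UV and 0.56 ± 0.22 with UV did not pass the test (limma adjusted p = 0.225 and 0.121). With UV the H2-K1 difference was called under quantile normalization (adjusted p = 0.0131) and after rescaling without the 20 most abundant genes (0.0310). Quantile normalization also turned the difference without UV to 0.01, so that the opposite signs of the 2 arms were not seen on that scale.

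H2-D1, the D heavy chain, had 17209 and 10514 normalized reads in EGFP without UV, 22098 and 10227 in EGFP with UV, 14802 and 9626 in tdTomato without UV, and 13184 and 4890 in tdTomato with UV. Replicate 1 was above replicate 2 in every group, and the groups overlapped in every comparison. Within each mouse EGFP exceeded tdTomato, by 1.16 and 1.09 times without UV and 1.68 and 2.09 times with UV. In the fit without mouse the log2 difference with UV was 0.90 ± 0.51 (limma adjusted p = 0.280), and with mouse as a block, which pairs the 2 libraries of a mouse, the same difference was called (limma adjusted p = 0.00676). Over all mice the H2-D1 difference was 0.54 (limma adjusted p = 0.313, and 0.00714 with the mouse block).

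The balance of the heavy chains differed between mice and, within a mouse, between the populations. The ratio of H2-D1 to H2-K1 was 1.48 and 0.878 in EGFP without UV, 2.55 and 0.796 in EGFP with UV, 1.08 and 0.519 in tdTomato without UV and 1.73 and 0.731 in tdTomato with UV. It was above 1 in all 4 libraries of mice 1 and 3 and below 1 in all 4 of mice 2 and 4, and within each of the 4 mice it was higher in EGFP than in tdTomato. The 2 genes share 50-base stretches with each other and with other class I genes (8.79% of the windows of H2-K1 and 14.3% of those of H2-D1), and how reads of such stretches were counted is not given in the sources used here, which leaves the split between H2-K1 and H2-D1 uncertain to that extent. The ratio of B2m to both heavy chains together ran from 1.05 (tdTomato with UV, replicate 1) to 3.07 (EGFP with UV, replicate 2).

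Tap1 and Tap2 form the peptide transporter, and Tapbp encodes tapasin, which tethers class I molecules to it. None of the 3 was called between the populations. Tap1 had 608 and 1005 normalized reads in EGFP without UV, 422 and 487 in EGFP with UV, 1029 and 929 in tdTomato without UV, and 425 and 460 in tdTomato with UV. The log2 difference between the populations was -0.32 without UV and 0.04 with UV, and both groups with UV lay below both groups without. Tap2 ranged from 182 to 669 normalized reads and Tapbp from 966 to 1815, with the populations overlapping in both arms. Within a mouse Tap2 was higher in EGFP in all 4, by 1.33 and 2.00 times without UV and 1.55 and 1.03 times with UV, and the difference was not called with the mouse block either. The share of all genes tested with 1 sign in all 4 mice was not counted, so the pattern may be common. The largest difference of Tap2 and Tapbp was that of Tap2 without UV, 0.70 ± 0.50 (limma adjusted p = 0.385).

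Psmb8, Psmb9 and Psmb10 encode the 3 catalytic subunits that replace Psmb5, Psmb6 and Psmb7 in the immunoproteasome, the form that favours peptides fitting class I. Psmb9 had 605 and 422 normalized reads in EGFP without UV, 612 and 566 in EGFP with UV, 1799 and 1217 in tdTomato without UV, and 809 and 576 in tdTomato with UV. The tdTomato libraries without UV stood above all 6 others. Without UV the EGFP value was 0.337 and 0.347 of the tdTomato value of the same mouse, and the log2 difference was -1.55 ± 0.31 (limma adjusted p = 0.0103). That call was lost without EGFP replicate 2 (limma adjusted p = 0.104) or tdTomato replicate 1 (0.0780) of the mice without UV. With UV the Psmb9 value in EGFP was 0.757 and 0.983 of that in tdTomato, and the log2 difference of -0.21 ± 0.31 did not pass (limma adjusted p = 0.724). Over all mice it was -0.88 ± 0.22 (limma adjusted p = 0.0175), and the authors' deposited table gives -0.99 with an adjusted p of 0.0278. The call over all mice was lost without EGFP replicate 2 or tdTomato replicate 1 of the mice without UV or tdTomato replicate 1 of the UV mice (limma adjusted p = 0.0867, 0.0749 and 0.0935).

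Psmb8 and Psmb10 did not differ between the populations by the test. Psmb8 had 2600 and 2179 normalized reads in EGFP without UV, 1919 and 2812 in EGFP with UV, 3747 and 2860 in tdTomato without UV, and 2488 and 1685 in tdTomato with UV. Psmb10 stayed within a narrow range, from 898 (tdTomato without UV, replicate 2) to 1402 (tdTomato with UV, replicate 1). It was higher in EGFP than in tdTomato in both mice without UV and lower in both UV mice.

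Set against the subunit that each replaces, the 3 immunosubunits behaved differently. The ratio of Psmb9 to Psmb6 was 0.0761 and 0.0564 in EGFP without UV, 0.0678 and 0.0670 in EGFP with UV, 0.181 and 0.136 in tdTomato without UV, and 0.0702 and 0.0557 in tdTomato with UV. It was high in tdTomato without UV alone, and its log2 difference there, EGFP minus tdTomato, was -1.26 (95% interval -1.93 to -0.59). The ratio of Psmb10 to Psmb7 was 0.375 and 0.317 in EGFP without UV, 0.306 and 0.332 in EGFP with UV, 0.227 and 0.238 in tdTomato without UV, and 0.270 and 0.237 in tdTomato with UV. All 4 EGFP libraries lay above all 4 tdTomato libraries, by 0.45 on the log2 scale over all mice (95% interval 0.22 to 0.68). The ratio of Psmb8 to Psmb5 was 0.917 and 1.03 in EGFP without UV, 0.575 and 0.864 in EGFP with UV, 0.969 and 0.795 in tdTomato without UV, and 0.473 and 0.375 in tdTomato with UV. It was lowest in tdTomato with UV, 1.06 lower on the log2 scale than in tdTomato without UV (difference -1.06, 95% interval -1.80 to -0.32). These intervals come from the group means with 4 degrees of freedom, cover 18 differences without adjustment and carry no p. A ratio alone shows unequal change of 2 genes and does not say which of them moved. Over all mice Psmb10 itself differed by -0.04 ± 0.16 (limma adjusted p = 0.858). Per kilobase the group means of Psmb7 were 899 and 1028 in EGFP (without and with UV) and 1183 and 1548 in tdTomato. Without UV Psmb9 stood at 140 in EGFP and 412 in tdTomato, and Psmb6 at 4126 and 5051. In tdTomato Psmb8 stood at 977 without UV and 617 with UV, and Psmb5 at 4153 and 5424.

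**Figure D2:**
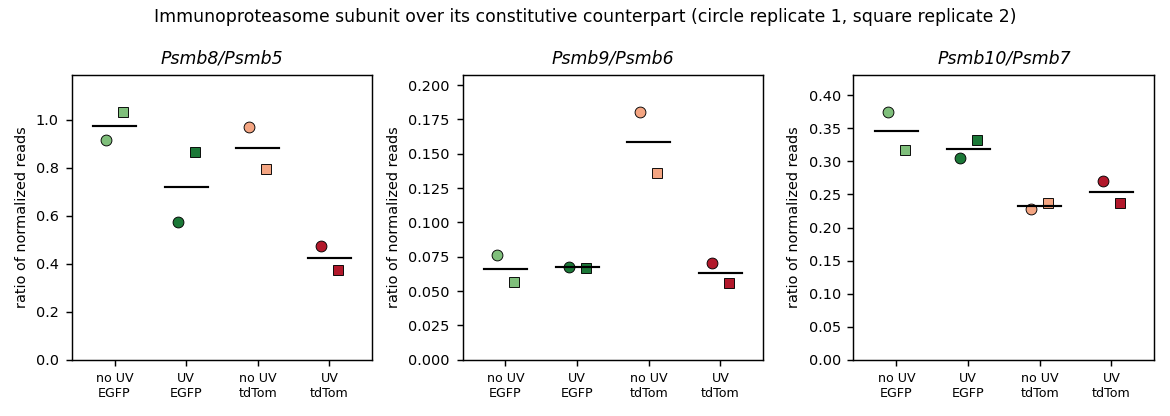
Ratio of normalized reads of each immunoproteasome subunit to the constitutive subunit it replaces, by group (linear axes from 0, circles replicate 1, squares replicate 2, bars group means). The Psmb9/Psmb6 points of tdTomato without UV, 0.181 and 0.136, stand above the other 6, and the Psmb10/Psmb7 points of EGFP stand above those of tdTomato.

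Nlrc5, the transactivator of class I genes, had 109 and 134 normalized reads in EGFP without UV, 78.9 and 316 in EGFP with UV, 166 and 136 in tdTomato without UV, and 46.7 and 41.7 in tdTomato with UV. The 2 EGFP libraries with UV differed by more than the 2 of any other group. The value of 316 came from replicate 2, the library with reads in the fewest genes (11186). With UV the log2 difference between the populations was 1.82 ± 0.69 and did not pass (limma adjusted p = 0.112), while DESeq2 on the recovered reads called it (adjusted p = 0.0155), as did limma under quantile normalization (0.0209) or without EGFP replicate 1 of the UV mice (0.00675). Without EGFP replicate 2 of the UV mice the Nlrc5 difference was 0.82 (limma adjusted p = 0.381).

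UV exposure was compared with no UV within each population, which asks whether the class I genes moved in the 3 days of UVB. In tdTomato+ cells 9 of 10 members were lower with UV, beside 54.1% of all genes tested. The median log2 difference of the 10 was -0.87, beside -0.09 over all genes. However, 0 of 10 passed limma's test, where 0.559% of all genes were called. An unadjusted p under 0.05 was reached by 7 of the 10 (Psmb10 in the upward direction), beside 13.4% of all genes tested. Of the 9 lower values, that of H2-D1 turned to 0.14 without tdTomato replicate 2 of the UV mice. That of Tap2 turned to 0.30 without tdTomato replicate 1 of the UV mice and to 0.18 without replicate 2 of the mice without UV. On the recovered reads edgeR called 2 members lower, B2m (adjusted p = 0.0188) and H2-K1 (0.0141), and DESeq2 called 4, B2m (0.00633), H2-K1 (0.00178), Tap1 (0.0288) and Psmb9 (0.0423). Of the 18070 genes tested edgeR called 132 higher and 108 lower with UV, and DESeq2 called 358 higher and 271 lower. Whether B2m, H2-K1, Tap1 and Psmb9 are below the threshold therefore depends on the test.

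In tdTomato the log2 difference was -1.07 ± 0.22 for B2m (limma adjusted p = 0.0845) and -1.16 ± 0.22 for H2-K1 (limma adjusted p = 0.0724). It was -1.14 ± 0.30 for Tap1 (limma adjusted p = 0.157), -1.12 ± 0.31 for Psmb9 (0.183), -0.68 ± 0.27 for Psmb8 (0.334) and -1.74 ± 0.69 for Nlrc5 (0.327). In these 6 genes both UV libraries lay below both libraries without UV, which was also true of 24.5% of all genes tested. H2-D1 (-0.57), Tapbp (-0.27) and Tap2 (-0.13) overlapped between the arms. Psmb10 alone was higher with UV, by 0.51 ± 0.22 (limma adjusted p = 0.365), with no overlap. The share of all genes tested that were higher with UV without overlap was not counted.

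Marker genes of the cell types in the tdTomato+ mixture were read in the same libraries. Of 14 tested leukocyte markers 0 were called higher and 1 lower with UV, and the gene called was Cd207. Their median log2 difference was -0.16, and only 50% of the 14 had a difference below 0. Cd207, the Langerhans cell lectin, had 1237 and 271 normalized reads in tdTomato without UV and 0 and 0 with UV. Cd3e, a T cell receptor chain, had 119 and 95.6 without UV and 19.2 and 0 with UV, and Cd74, the class II invariant chain, had 6548 and 1323 without UV and 763 and 527 with UV. None of the 8 tested class II genes was called by limma (3 had an unadjusted p under 0.05), and the 9 class II genes together summed to 13108 and 3874 normalized reads without UV and 2740 and 1932 with UV. The whole list of 15 leukocyte markers did not separate the arms, at 5105 and 1994 without UV and 6608 and 1322 with UV, with 1 marker (Cd8a) at 0 reads in tdTomato without UV and 2 (Cd8a and Cd207) with UV. Of 10 keratinocyte markers 0 were called higher and 2 lower, the keratins of differentiating layers Krt10 (-4.95 ± 0.37, limma adjusted p = 0.0101) and Krt1 (-7.98 ± 0.80, 0.0133), while Krt14 of the basal layer stood at 0.17 ± 0.23 (0.801). Of 10 melanocyte markers 7 were called higher and 0 lower, with a median of 3.11. The melanocyte gene Dct in tdTomato amounted to 0.981% and 0.456% of its EGFP mean without UV and to 3.66% and 6.11% with UV. The 7 fibroblast markers summed to 14728 to 17548 normalized reads in tdTomato without UV and 8349 to 11844 with UV (median log2 difference -1.62). The 7 endothelial markers summed to 42.8 to 206 without UV and 94.6 to 999 with UV (median 2.14). In both lists 0 genes were called. The part of these shifts in the class I values was not tested.

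**Figure D3:**
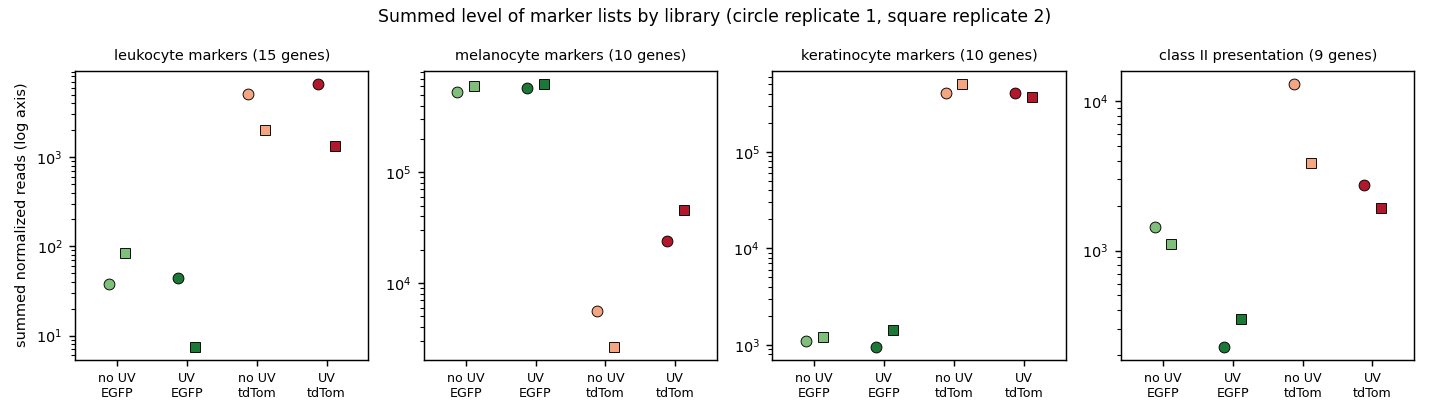
Summed normalized reads (log axes) of leukocyte, melanocyte, keratinocyte and class II genes in each library (circles replicate 1, squares replicate 2). The leukocyte sums are 7.54 to 84.6 in EGFP and 1322 to 6608 in tdTomato, and the melanocyte sums in tdTomato are higher with UV (24003 and 45527) than without (5648 and 2675).

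In EGFP+ cells 0 of 10 members passed limma's test for UV, where 0.0166% of all genes were called, and edgeR and DESeq2 on the recovered reads also called 0. Of the 18070 genes tested edgeR called 17 higher and 103 lower with UV, and DESeq2 called 87 higher and 274 lower. The median log2 difference of the members was 0.02, beside -0.11 over all genes. An unadjusted p under 0.05 was reached by 1 of the 10, Tap1 at -0.78 ± 0.30 (limma adjusted p = 0.433), beside 10.4% of all genes tested. In Tap1 and Tapbp (-0.53 ± 0.26, limma adjusted p = 0.526) both UV libraries lay below both libraries without UV, which was also true of 20.7% of all genes tested. B2m was 0.49 ± 0.22 higher with UV (limma adjusted p = 0.480), with the arms overlapping. With 2 mice in each arm, the 95% interval of a member's UV change in EGFP+ cells reached from -0.01 to 0.98 for B2m, from -0.66 to 0.34 for H2-K1 and from -1.01 to 1.34 for H2-D1, so changes within those bounds are compatible with these values.

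The change with UV was then compared between the populations. The difference of the UV changes, EGFP minus tdTomato, was 1.55 ± 0.31 on the log2 scale for B2m (limma adjusted p = 0.225), 1.00 ± 0.31 for H2-K1 (0.377), 1.33 ± 0.44 for Psmb9 (0.389) and 2.13 ± 0.98 for Nlrc5 (0.515). None of the 10 members was called by limma, where 0.00553% of all genes were, and 3 had an unadjusted p under 0.05, beside 1814 of the 18070 genes tested. For B2m edgeR (adjusted p = 0.0412) and DESeq2 (0.0104) on the recovered reads called the difference, and each called 1 member. Over all genes tested edgeR called 18 higher and 57 lower, and DESeq2 called 83 higher and 208 lower. A different response of the populations was therefore not established by limma's test for any member.

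**Figure D4:**
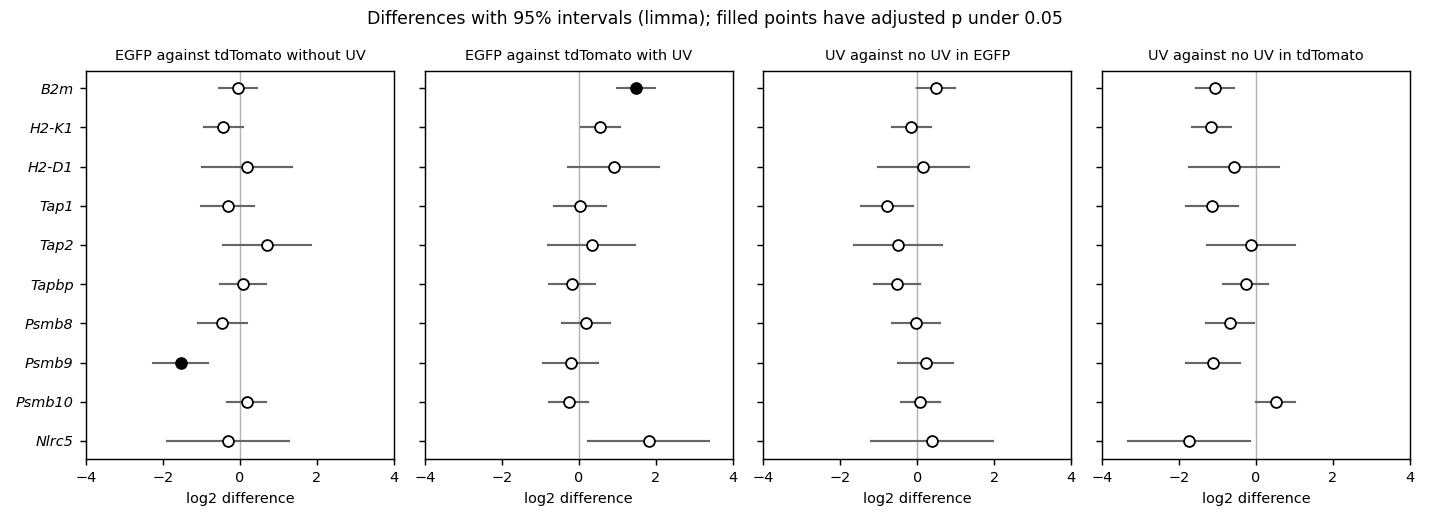
Log2 differences of the 10 class I genes in the comparisons named above each panel, with 95% intervals from limma. Filled points have an adjusted p under 0.05: B2m between the populations with UV, and Psmb9 between the populations without UV.

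Around these 10 genes the rest of the pathway was set out by lists, and the comparison of EGFP+ with tdTomato+ cells over all mice is given because it had most calls. Of the 18070 genes tested 28.9% were called in it, 1746 higher and 3471 lower, which is the background for each list. Quantile normalization raised all log2 differences of this comparison by a median of 0.57 and rescaling without the 20 most abundant genes by 0.25, and they moved the share of calls that were higher in EGFP from 33.5% to 51.7% and 47.8%. The endoplasmic reticulum genes of peptide loading and trimming were mostly higher in EGFP: 7 of 12 were called higher and 1 lower (median log2 difference 0.57, beside -0.33 over all genes), and 7 of 12 were called higher under both scalings. Calr, the chaperone calreticulin, had a difference of 0.98 ± 0.12 (limma adjusted p = 0.000545). Pdia3, the disulfide isomerase ERp57 of the loading complex, had 0.59 ± 0.12 (0.00644), and the folding enzymes Uggt1 and Hspa5 had 1.07 ± 0.21 (0.00522) and 0.74 ± 0.15 (0.00773). Erap1, the trimming aminopeptidase, stood at -0.30 ± 0.24 (0.383). Leaving out 1 library gave 2 to 7 called higher (2 without EGFP replicate 2 of the mice without UV), and a fit with no trend gave 2.

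The proteasome genes lay on the other side. Of the 7 constitutive beta subunits 0 were called higher and 4 lower in EGFP (median -0.49), and of the 7 activator and assembly genes 0 higher and 5 lower (median -0.57). Psmb1 was -0.66 ± 0.11 (limma adjusted p = 0.00204), Psmb5 -0.59 ± 0.14 (0.0123), Psmb7 -0.49 ± 0.11 (0.0116) and Psmb6 -0.31 ± 0.10 (0.0520). Psme2 and Psme1, the 2 subunits of the interferon-inducible activator PA28, were -0.76 ± 0.11 (0.00112) and -0.52 ± 0.13 (0.0173), and Pomp, the assembly factor, was -0.75 ± 0.11 (0.00113). These calls depend on the scale: under quantile normalization 1 and 3 genes of the 2 lists were called lower and Psmb6 turned to 0.01, and after rescaling 2 and 2 were and Psmb6 stood at -0.04. With no trend 0 and 2 were called lower.

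Among 16 transcription factors of class I genes 2 were called higher in EGFP and 3 lower, a share near the 28.9% of all genes called in this comparison. Irf1, an activator of class I genes, was lower (-2.07 ± 0.19, limma adjusted p = 0.000112), with 2934 and 1813 normalized reads in EGFP without UV, 796 and 1172 in EGFP with UV, 7899 and 8755 in tdTomato without UV, and 4516 and 4958 in tdTomato with UV. Stat2 and Irf9, partners in the type I interferon complex, were higher (1.65 ± 0.30 and 1.27 ± 0.20, 0.00376 and 0.00206). The class II transactivator Ciita was low throughout, at no more than 9.78 normalized reads in a library. Rfx5, which binds the X box, stood at -0.12 ± 0.47 (0.872).

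Among 9 tested receptor and signalling genes 1 was called higher and 2 lower, a share near the 28.9% of all genes called. They were Ifnar2 at 1.44 ± 0.17 (limma adjusted p = 0.000434), Socs1 at -1.73 ± 0.40 (0.0115) and Ifngr1 at -0.61 ± 0.18 (0.0333). Ifng itself had 0 reads in all libraries. Of 20 interferon response genes 9 were called higher and 2 lower in EGFP, with a median of 1.61, among them Bst2 (2.32 ± 0.23, 0.000161) and Irgm1 (4.47 ± 0.55, 0.000517). The 9 higher calls became 4 without either UV tdTomato library or either EGFP library of the mice without UV, and 5 in a fit with no trend.

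Ligands read by T and NK cells and other presenting molecules differed in single genes. Cd274, which encodes PD-L1, had 805 and 643 normalized reads in EGFP without UV, 398 and 992 in EGFP with UV, 165 and 22.8 in tdTomato without UV and 57.7 and 31.5 in tdTomato with UV, and was higher in EGFP by 3.68 ± 0.62 (limma adjusted p = 0.00252). H60c, a ligand of the NK receptor NKG2D, was lower by the test (-7.46 ± 0.70, 0.000124), with at most 0.951 normalized reads in any EGFP library and 92.7 to 448 in tdTomato. Of the 9 tested genes of this list 2 were called higher and 3 lower. Of 15 tested heavy chains other than H2-K1 and H2-D1, 1 was called higher (Hfe, 1.35 ± 0.37, 0.0254) and 2 lower (H2-M2 and H2-T23, the latter -0.74 ± 0.22, 0.0384, and not called under either scaling). H2-T23, which encodes Qa-1, shares 28.8% of its 50-base windows with other genes, so its value is uncertain. Class II genes were lower, 4 of 8 tested, with Cd74 at -4.97 ± 0.85 (0.00280), beside the leukocyte sums given above. With UV in tdTomato the called genes of these lists were H2-M2 and Cxcl10, an interferon-induced chemokine that had 5709 and 6056 normalized reads without UV and 542 and 518 with UV (-3.47 ± 0.45, limma adjusted p = 0.0255).

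**Figure D5:**
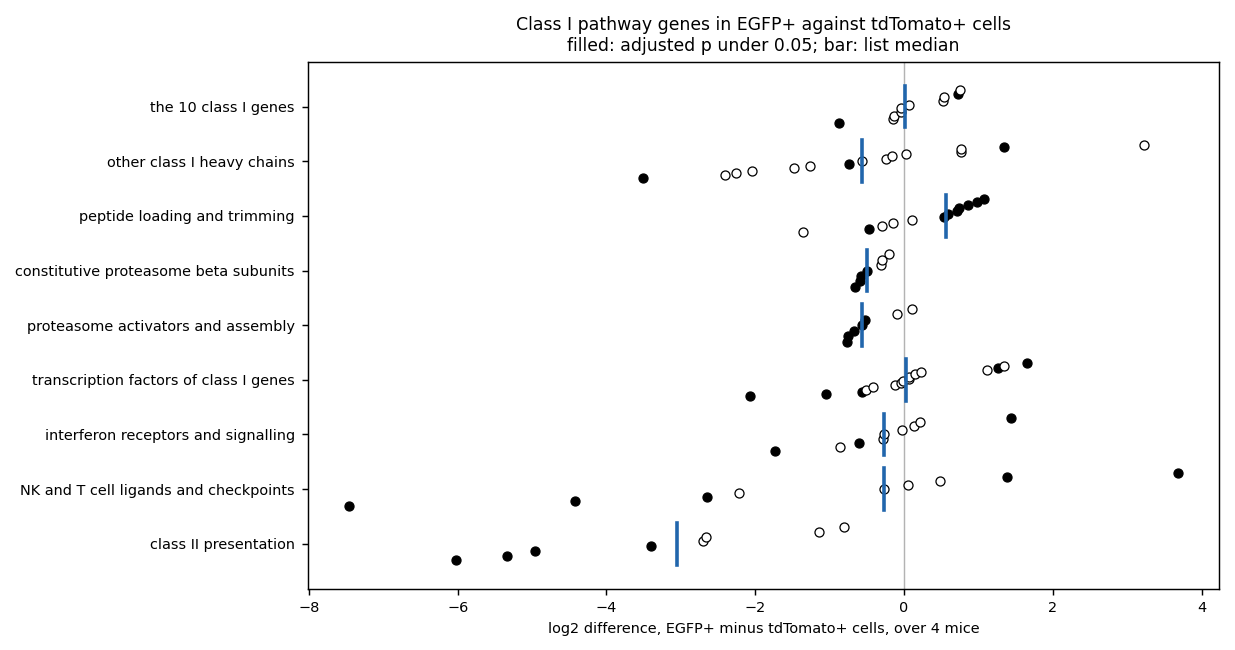
Log2 difference between EGFP+ and tdTomato+ cells over 4 mice for the 10 class I genes and 8 lists of pathway genes. Each point is a gene, filled where limma's adjusted p is under 0.05, and bars are list medians: 0.57 for peptide loading and trimming, -0.49 for constitutive proteasome beta subunits.

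The members did not move as one. Of the 45 pairs of members 11 had a Pearson r above 0.5 over the 8 libraries and 14 were below 0, with a median of 0.204, and the libraries share 4 mice and 2 populations. The mean of the 10 genes, each centred on the log2 scale, was 0.09 and 0.11 in EGFP without UV, -0.12 and 0.19 in EGFP with UV, 0.37 and 0.23 in tdTomato without UV, and -0.31 and -0.56 in tdTomato with UV. It was highest in tdTomato without UV and lowest in tdTomato with UV. Among 11240 other genes that reached a mean of 50 in a group, those most like this mean over the 8 libraries were Pkib (Pearson r 0.967), Pisd-ps3 (0.954), Aldh6a1 (0.949), Fam213a (0.947), Ikzf2 (0.946), Srsf11 (0.938), Runx2 (0.938) and Fbrs (0.937). The likeness is a description over 8 libraries and has no p. Pkib, a protein kinase A inhibitor, had 1192 and 1049 normalized reads in tdTomato without UV and 137 and 58.4 in tdTomato with UV, and 518 to 691 in EGFP.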

How the data were processed

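RNA of sorted EGFP+ and tdTomato+ cells from 4 mice was made into 8 poly(A) libraries from 1 µg of total RNA with an unstranded kit, per the labels' protocols. Per the submitters' processing notes the tools were DESeq2 1.14.1, Cufflinks 2.2.1, TopHat2 2.0.12 and FastQC, with mm10 as the build. The read counter, with its annotation, is not given in the sources used here. Normalized reads are the signal values that the authors deposited, scaled by 1 size factor per library. Whole reads were recovered from them (195368 of 195368 values within 0.01 of a whole number, 100%; factors 0.701 to 1.20). The log2 fold changes, scores and p-values of EGFP+ against tdTomato+ cells are the authors' own, deposited per gene, and were only quoted.

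limma 3.58.1 in R 4.3.3 was fitted to log2 of the value plus 1 with 4 group means over 8 libraries, a trend, and 4 degrees of freedom (median 8.40 once moderated). Genes that reached a mean of 1 in a group were tested. Adjustment was by Benjamini-Hochberg at 0.05. An exact permutation test of 2 against 2 cannot go below 0.333 and was not used. The spread behind each p-value is that of 2 mice a group, pooled over groups.

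Alternatives were quantile normalization, rescaling, pseudocount 0.1, no or a stricter filter, no trend, only the libraries compared, leaving out each library, a mouse or replicate-number block, and edgeR 4.0.16 and DESeq2 1.42.0 on recovered reads. The EGFP and tdTomato libraries of a mouse are paired by design; their deviations correlated across genes at 0.0873 (mice 1 and 2) and 0.0562 (mice 3 and 4). The limma fit was tested on simulated counts for the comparison of EGFP with tdTomato without UV. Other fits and comparisons were not tested in this way.

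The 10 genes and the 15 further lists were chosen with earlier results of these data known. Named genes were all members, a set of pathway genes always given, and up to 4 genes of a list with the smallest p in the comparison described. The 8 genes most like the members' mean were chosen by Pearson r. Levels per kilobase used GENCODE M21 exon lengths. The values of 1 gene of these lists are not reported here.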

Additional observations from a re-analysis of the deposited data

Results flagged for a closer look

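H2-K1, Psmb10 and Nlrc5 are listed because the difference between EGFP+ and tdTomato+ cells had 1 sign in both mice without UV and the opposite sign in both UV mice. The share of all genes tested with this sign pattern was not counted, so the pattern may be common. For H2-K1 the EGFP value was 0.847 and 0.647 of the tdTomato value in mice 1 and 2 and 1.13 and 1.92 times it in mice 3 and 4, and the difference of the log2 differences was 1.00 (limma adjusted p = 0.377). For Nlrc5 the EGFP value was 0.655 and 0.989 of the tdTomato value without UV and 1.69 and 7.57 times it with UV, and the difference was 2.13 (limma adjusted p = 0.515). Psmb10 went the other way, higher in EGFP without UV and lower with UV, with a difference of -0.43 (limma adjusted p = 0.664). Under quantile normalization the difference without UV became 0.01 for H2-K1 and 0.08 for Nlrc5, so for these 2 genes the opposite signs were not seen on that scale. The test of the difference itself did not pass for any of the 3, and for Nlrc5 the ratio in mouse 2, 0.989, lay close to 1.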

How the results depend on the processing

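Of 1060 refits of a member's difference, 1022 stayed on the same side of the threshold, 17 lost and 21 gained a call, and 54 changed sign, 0 of them in a called value (the largest reported size among them was 0.572, that of H2-D1 for UV in tdTomato). Many of these refits keep the estimate by construction, such as those without a library outside the comparison, so an unchanged sign says little. Most differences were not called to begin with. A call could be lost only for B2m with UV and over all mice and for Psmb9 without UV and over all mice. The counts are therefore no measure of how stable those calls are. Genes called with UV between the populations numbered 1074 with only the libraries compared (3240 as reported). For UV in EGFP (3) the counts were 16 with quantile normalization (4 higher and 12 lower with UV), 1 with pseudocount 0.1, 24 with no trend, 0 with only the libraries compared, 120 by edgeR and 361 by DESeq2. For UV in tdTomato (101) they were 218 with quantile normalization, 29 with pseudocount 0.1, 0 with only the libraries compared, 240 by edgeR and 629 by DESeq2. For the difference of UV changes (1) they were 14 with quantile normalization (4 higher), 2 rescaled, 0 with pseudocount 0.1, no filter or no trend, 75 by edgeR and 291 by DESeq2. Leaving out 1 library gave 1370 to 4300 genes without UV, 958 to 4737 with UV, 3448 to 6402 over all mice, 0 to 1460 for UV in EGFP, 0 to 1226 for UV in tdTomato and 0 to 779 for the difference.

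Members called between the populations without UV (1, Psmb9) were 0 with no trend (limma adjusted p = 0.0510) and with only the libraries compared (0.0619), and 0 to 1 without a library. With UV (1, B2m) they were 3 with quantile normalization, 2 rescaled, 0 with only the libraries compared (adjusted p = 0.0627), 2 by DESeq2 and 0 to 3 without a library. Over all mice (2) they were 3 with quantile normalization, which added H2-K1 (0.0367), 1 rescaled, with Psmb9 lost (0.0651), 0 with no trend (B2m 0.0949, Psmb9 0.0694) and 0 to 3 without a library. For UV in tdTomato (0) they were 2 with quantile normalization, 2 by edgeR, 4 by DESeq2 and 0 without any library. For the difference (0) they were 1 by edgeR, 1 by DESeq2 and 0 to 1 without a library, where Nlrc5 was called without EGFP replicate 1 of the UV mice (0.0428). With the mouse block members called were 1 without UV, 2 with UV (B2m and H2-D1) and 3 over all mice, and genes called were 3288, 3190, 5221 and, for the difference, 1; a block by replicate number, which only numbers different mice, gave 2 genes for UV in EGFP and 70 in tdTomato. The mouse block changed the call of no member other than H2-D1. Fits of only the libraries compared were not run over all mice or for the difference. The member counts between the populations stand beside these counts over the 18070 genes tested, higher and lower in EGFP. With UV they were 1378 and 1674 under quantile normalization, 1285 and 2011 rescaled and 1402 and 2641 by DESeq2. Over all mice they were 2857 and 2672 under quantile normalization, 2655 and 2895 rescaled and 1313 and 2822 with no trend. Without UV they were 795 and 1770 with no trend and 792 and 1582 with only the libraries compared.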
